A study of Mus musculus with 4 samples.

Results

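The extracellular matrix genes described here are 47 collagens, laminins, elastic fibre genes and their partners, taken by symbol from the 31054 genes counted in each library. All 47 symbols were found in each of the 4 libraries. By role they comprise 6 chains of fibril-forming collagens, 4 chains of the basement membrane collagen IV, 4 microfibrillar or short-chain collagen chains, 4 fibril-associated or transmembrane collagens, 2 multiplexins, 7 laminin chains, 8 elastic fibre genes, 4 matricellular or adhesive glycoproteins, 3 small leucine-rich proteoglycans, 2 basement membrane linkers and 3 crosslinking enzymes.

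Fibrillar collagens are secreted as procollagen trimers, trimmed outside the cell and crosslinked by lysyl oxidases into fibrils that give the lung its tensile strength. Elastin is deposited on fibrillin microfibrils with the help of fibulins and microfibril-associated proteins and gives the alveolar wall its recoil. Collagen IV networks and laminin trimers, joined by nidogen and perlecan, form the basement membranes under epithelium and endothelium, which in the alveolus lie close together.

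Lungs came from male C57BL/6 mice that were 19 months old when they began 1 month of BPTES, an inhibitor of the glutaminase GLS1, or of DMSO, the vehicle. Each treatment is represented by 2 single-cell 3' RNA libraries, and no dose is given. Lungs were digested with Liberase for 1 h, and 20000 CD45-negative cells were mixed with 9000 CD45-positive (immune) cells of the same tissue for each library. The labels do not say that the libraries came from separate mice, so p-values measure the spread between these libraries, which may be partly technical.

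The 4 libraries held 16440 to 21986 barcodes and 260346570 to 342107092 unique molecular identifiers (UMIs, counts of single RNA molecules). After filtering 14407 to 18860 cells per library remained, with a median of 13920.5 to 15749 UMIs, in 39 clusters that were made without the 47 genes. Clusters were named "-like" from fixed marker lists. Fibroblast clusters held 25.2% to 29.7% of each library's cells, and mesothelial-like cells numbered 1 and 15 with BPTES against 225 and 70 with DMSO. Markers of AT2 cells, which make surfactant, were also detected in clusters of other types, at 280 and 210 CPM (UMI counts scaled to equal totals) with BPTES against 86.4 and 161 CPM with DMSO in alveolar fibroblast-like cells. B-like cells, which make little matrix, were taken as a reference for free RNA, though RNA of their own may add to it. For 45 of the 47 genes they held at most 1.64% of the highest level of any cluster. The exceptions were the basement membrane linker Nid1 (4.92%) and the laminin chain Lamc1 (18.4%, 135 CPM). Over the libraries Lamc1 read 125 to 143 CPM in B-like cells, against means of 4.88 CPM for Col1a2 and 5.91 CPM for Col3a1. The source of Lamc1 RNA there was not tested.

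Fibroblasts supplied most of the RNA of the fibrillar collagens. Their clusters held on average 93.8% of a library's Col1a1 UMIs, 93.7% of Col1a2 and 91.4% of Col3a1, the chains of collagens I and III. Adventitial fibroblast-like cells, which surround airways and vessels, had the highest levels of all 3: 1338 ± 433 CPM for Col1a1, 2427 ± 487 CPM for Col1a2 and 2099 ± 844 CPM for Col3a1 (mean ± SD, n = 4, the libraries of both treatments). For Col1a1 and Col1a2 the range over libraries did not overlap that of the cluster next in order, unnamed fibroblast cluster 26 (939 ± 42.8 and 1658 ± 75.8 CPM), whereas Col3a1 overlapped mesothelial-like cells (1630 ± 1152 CPM). Collagen V, which helps to set fibril diameter, was spread over more clusters. Its minor chain Col5a3 was highest in adventitial fibroblast-like cells (50.1 ± 8.83 CPM). Col5a1 lay at 238 to 255 CPM in its 4 leading clusters and Col5a2 at 564 ± 114 CPM in alveolar fibroblast-like cluster 4 and 553 ± 231 CPM in fibroblast cluster 24, in both cases with overlapping libraries. Cell type levels here and below describe the clusters and carry no test.

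**Figure D1:**
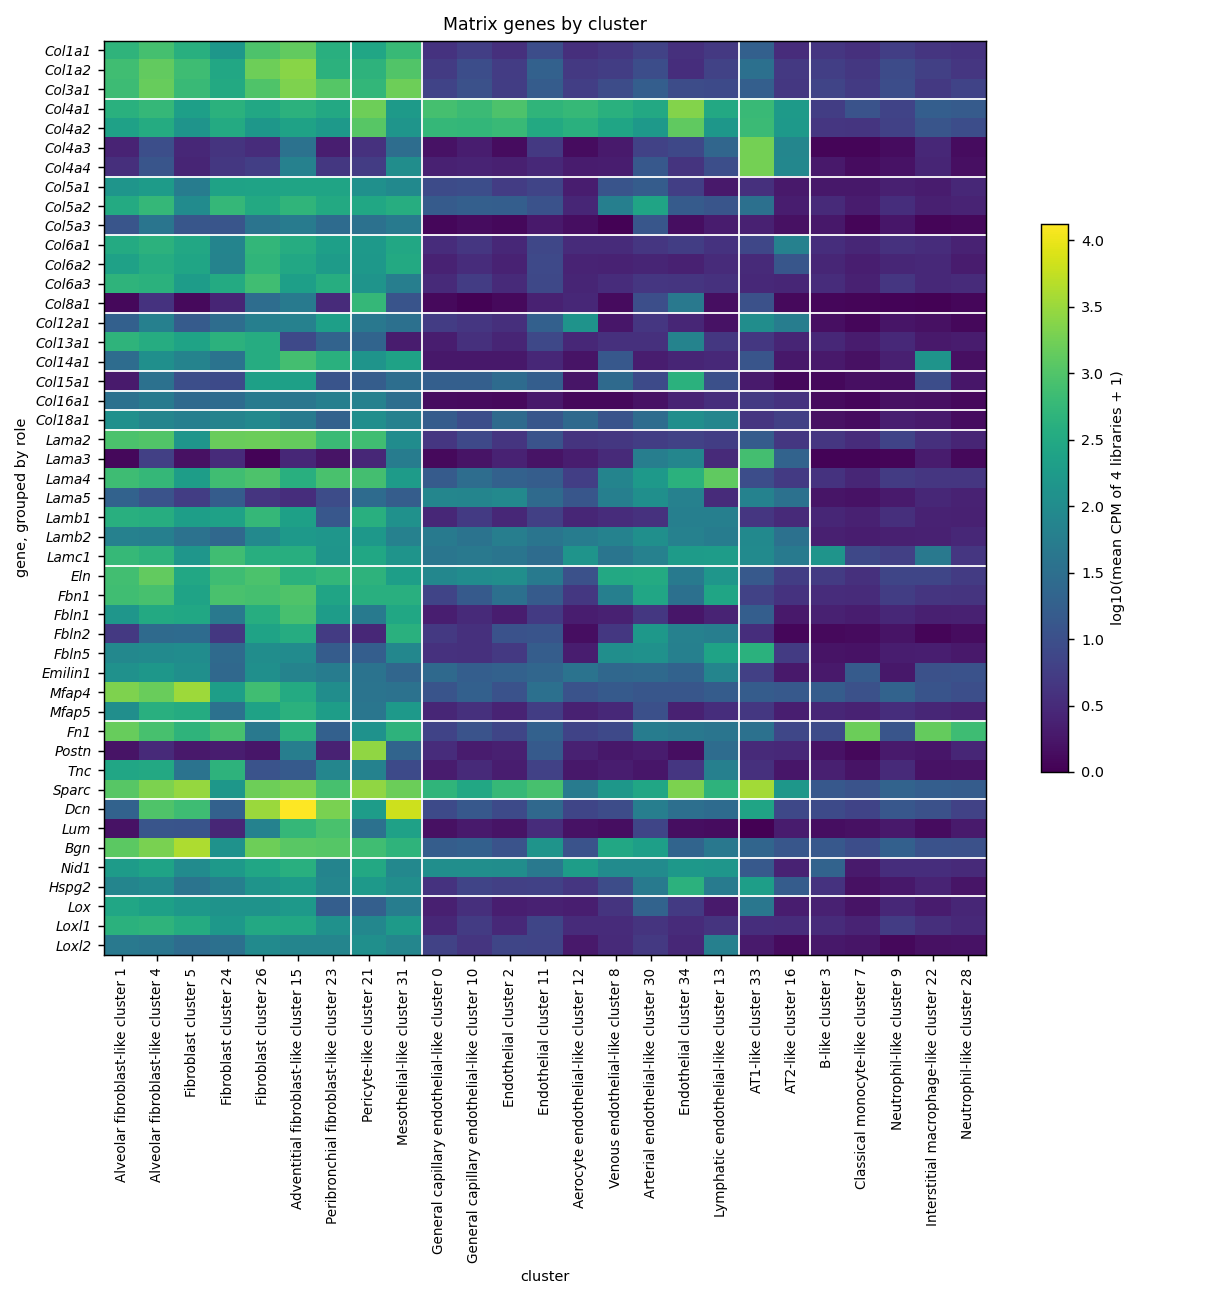
Mean level of the 47 genes (rows, grouped by role) in the fibroblast, mural, mesothelial, endothelial and epithelial clusters and in 5 immune clusters (columns), as log10 of the mean CPM of 4 libraries plus 1. Fibrillar collagens and elastic fibre genes lie in the fibroblast columns, Col4a1 and Col4a2 in endothelial and pericyte-like columns too, and Col4a3, Col4a4 and Lama3 in the AT1-like column.

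Of the collagen IV chains, Col4a3 and Col4a4 were highest in epithelium, while Col4a1 and Col4a2 were shared by several cell types. Col4a1 and Col4a2, which form the common network, reached 2247 ± 430 and 1288 ± 161 CPM in endothelial cluster 34, a cluster of 150 cells. Pericyte-like cells followed with 1628 ± 251 and 1123 ± 117 CPM, overlapping it. Endothelial clusters together held 54.0% of Col4a1 UMIs and fibroblasts 36.5%. Col4a3 and Col4a4, chains of the alveolar epithelial network, were highest in AT1-like cells, the flat gas-exchange epithelium, at 1829 ± 127 and 1799 ± 311 CPM. The cluster next in order reached 77.8 CPM for Col4a3 (AT2-like) and 102 CPM for Col4a4 (mesothelial-like). For Col4a2, AT1-like cells came next after pericyte-like cells, at 654 ± 190 CPM.

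Both pairs of genes lie head to head. Col4a1 (chr8:11198423-11312826, minus strand) and Col4a2 (chr8:11312805-11449287, plus strand) overlap by 22 bases in GRCm38 (GENCODE vM21). Col4a4 (chr1:82448423-82586849, minus strand) and Col4a3 (chr1:82586921-82722059, plus strand) are 71 bases apart. The whole gap between this pair, both highest in AT1-like cells, is printed from RefSeq's GRCm38.p6, chr1:82586850-82586920, read on the strand of Col4a4:
Col4a4 to Col4a3 gap: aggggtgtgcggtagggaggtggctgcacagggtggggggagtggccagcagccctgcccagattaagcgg
Neither TATAAA nor CCAAT, searched on both strands, occurs in these 71 bases, which are 69.0% G or C. Of 32851 promoters, 4.41% held TATAAA and 13.3% held CCAAT in a stretch of that length.

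Other collagens led in different fibroblast, mural or endothelial clusters. The microfibrillar collagen VI chains were highest in fibroblast cluster 26, at 541 ± 28.4 CPM (Col6a1), 505 ± 35.2 CPM (Col6a2) and 736 ± 95.6 CPM (Col6a3), with no overlap with the cluster next in order. Col14a1, which binds fibril surfaces, led in adventitial fibroblast-like cells (772 ± 56.8 CPM), and Col12a1, of the same group, in peribronchial fibroblast-like cells (211 ± 31.6 CPM). Aerocyte endothelial-like cells came next for Col12a1, at 131 ± 12.2 CPM. Col13a1, a transmembrane collagen, was highest in alveolar fibroblast-like cluster 1 (479 ± 56.3 CPM), overlapping fibroblast cluster 24 (443 ± 91.9 CPM), and 98.6% of its UMIs lay in fibroblasts. Col8a1, a short-chain collagen of vessel walls, stood at 568 ± 74.7 CPM in pericyte-like cells and at most at 48.2 CPM elsewhere, and Col16a1, a fibril-associated collagen, at 64.4 ± 7.02 CPM in pericyte-like cells, overlapping peribronchial fibroblast-like cells (59.7 ± 5.12 CPM). The multiplexins, which bridge basement membrane and stroma, led in different places: Col15a1 in endothelial cluster 34 (426 ± 92.1 CPM) and Col18a1 in alveolar fibroblast-like cluster 1 (118 ± 6.94 CPM), the latter overlapping pericyte-like cells.

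The 4 laminin alpha chains among the 47 genes were highest in different cell types. Lama2 was highest in fibroblasts (1561 ± 142 CPM in cluster 26), Lama3 in AT1-like cells (777 ± 145 CPM), Lama4 in lymphatic endothelial-like cells (1313 ± 33.4 CPM) and Lama5 in arterial endothelial-like cells (113 ± 12.7 CPM). Fibroblast cluster 26 came next for Lama4 (943 ± 120 CPM), and 82.1% of Lama4 UMIs lay in fibroblasts. None of these 4 overlapped the cluster next in order over the 4 libraries, apart from Lama2, which overlapped fibroblast cluster 24. The beta and gamma chains were less restricted: 53.6% of Lamb2 UMIs lay in fibroblasts and 34.5% in endothelium, while Lamb1 (92.3%) and Lamc1 (80.0%) lay mainly in fibroblasts. Of the linkers, Nid1 (nidogen) was shared by fibroblasts (64.3%) and endothelium (30.1%), and Hspg2 (perlecan) was highest in endothelial cluster 34 at 447 ± 76.7 CPM.

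Elastic fibre genes peaked in different fibroblast states. Eln, elastin, peaked in alveolar fibroblast-like cluster 4 at 1345 ± 155 CPM, above every library of fibroblast cluster 26 (911 ± 52.8 CPM). Mfap4 peaked in unnamed fibroblast cluster 5, a state of low RNA content (median 2885 to 3659 UMIs per cell), at 3329 ± 354 CPM and Emilin1 in alveolar fibroblast-like cluster 4 at 153 ± 10.9 CPM. Fbn1 (957 ± 131 CPM), Fbln1 (839 ± 95.0 CPM) and Mfap5 (432 ± 49.7 CPM) led in adventitial fibroblast-like cells. Fbln2 had its highest mean in mesothelial-like cells (416 ± 429 CPM), which overlapped adventitial fibroblast-like cells (352 ± 105 CPM). Its mesothelial values ran from 0 to 1011 CPM, in libraries with 1 to 225 such cells. Fbln5, which tethers elastin to cells, had its highest level outside fibroblasts, at 424 ± 65.1 CPM in AT1-like and 248.8 ± 18.7 CPM in lymphatic endothelial-like cells. The crosslinking enzymes Lox (272 ± 29.4 CPM) and Loxl1 (486 ± 38.9 CPM) were highest in the alveolar fibroblast-like clusters 1 and 4, where each overlapped the other cluster, and Loxl2 in pericyte-like cells (113 ± 16.6 CPM).

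Glycoproteins and proteoglycans included the most unevenly distributed genes. Postn (periostin) was at 2756 ± 131 CPM in pericyte-like cells and 57.9 CPM in the cluster next in order, and 87.2% of its UMIs lay in that mural cluster. Fn1 (fibronectin) was not a fibroblast gene alone: classical monocyte-like cells (1579 ± 138 CPM) overlapped alveolar fibroblast-like cluster 1 (1476 ± 141 CPM), and immune and other clusters held 30.7% of its UMIs. Sparc, a collagen-binding glycoprotein, was highest in AT1-like cells (3510 ± 618 CPM), and Tnc (tenascin C) in fibroblast cluster 24 (465 ± 110 CPM). Decorin and lumican, which regulate fibril assembly, had their highest means in different states, Dcn in adventitial (13312 ± 781 CPM) and Lum in peribronchial fibroblast-like cells (881 ± 64.8 CPM). The Lum libraries of peribronchial cells overlapped those of adventitial cells (560 ± 246 CPM). Bgn (biglycan) peaked in fibroblast cluster 5 (4063 ± 99.6 CPM).

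The treatment comparison asked whether BPTES changed these genes within a fibroblast state or vessel type, or changed which states were present. Shares of the fibroblast states moved between the groups. Alveolar fibroblast-like cluster 4, the state with the highest Eln, made up 24.3% and 25.1% of fibroblasts with BPTES and 15.8% and 19.2% with DMSO. Alveolar fibroblast-like cluster 1 made up 42.8% and 36.7% with BPTES and 50.2% and 47.2% with DMSO. In both clusters the groups did not overlap, and with 2 libraries against 2 an exact permutation test cannot reach a p under 0.05. Fibroblast cluster 5 was also higher with BPTES (18.5% and 18.2% against 10.0% and 14.1%), and adventitial fibroblast-like cells overlapped (4.27% and 7.38% against 10.3% and 6.44%).

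**Figure D2:**
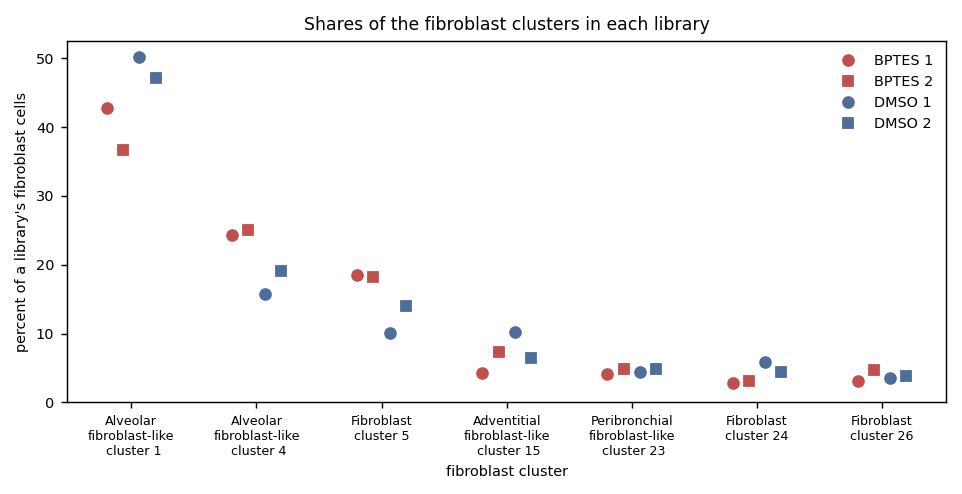
Percent of each library's fibroblast cells (y axis) in each of the 7 fibroblast clusters (x axis), with 1 point per library, circles for replicate 1 and squares for replicate 2. Clusters 4 and 5 lie higher in both BPTES libraries and clusters 1 and 24 lie lower, whereas cluster 15 overlaps.

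Over the 8 fibroblast fits (7 clusters and the alveolar class) 3 gene-by-state results passed the test, against 0.0943% of all gene-by-state tests. Col3a1 rose in alveolar fibroblast-like cells, Tnc rose in peribronchial fibroblast-like cells and Lum fell in fibroblast cluster 5. Here and below the test is edgeR's quasi-likelihood test on UMIs summed per library, with Benjamini-Hochberg adjustment over all genes of that fit, a call is an adjusted p under 0.05, and levels are CPM after TMM scaling. DESeq2 called 26 results on the same sums, where it called 2.09% of all gene-by-state tests. Without BPTES replicate 1, BPTES replicate 2, DMSO replicate 1 or DMSO replicate 2, edgeR called 27, 10, 4 and 18, where it called 1.77%, 0.528%, 0.209% and 0.927% of all tests.

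In the alveolar fibroblast-like class (clusters 1 and 4 together, 2559 to 3163 cells per library), collagen genes stood higher with BPTES. All 6 fibril-forming chains (Col1a1, Col1a2, Col3a1, Col5a1, Col5a2 and Col5a3) had a positive log2 fold change with non-overlapping libraries, with a median of 0.40. Over all 47 genes 39 were positive, 28 were higher and 5 lower without overlap, and the median was 0.19. Among the 17079 genes tested there, 47.9% were positive, 27.3% were higher and 28.7% lower without overlap, and the median was -0.01. Of the 47, 22 had an unadjusted p under 0.05, against 22.1% of all genes, and 1 passed the adjusted threshold, against 0.299%.

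Col3a1, the collagen III chain (chr1:45311538-45349706, plus strand, GRCm38), was the gene that passed. It stood at 1169 and 1154 CPM with BPTES and at 716 and 788 CPM with DMSO. Both BPTES libraries lay above both DMSO libraries, and 96.1% to 98.9% of the cells in each held at least 1 UMI, against 5.55% to 8.51% of B-like cells (median UMIs per cell 19832 to 22497.5 and 11887 to 12703.5). The log2 fold change was 0.63 ± 0.081 (SE), with an edgeR adjusted p of 0.0449. The call was lost without DMSO replicate 1 (adjusted p 0.405) or DMSO replicate 2 (0.0686), with a replicate block (0.0554) and with doublets kept (0.0703). At a coarser clustering the fold change was 0.24 (0.431), in a class that also took in the cluster best matching adventitial fibroblast-like cells. The summed level of the 7 smooth muscle markers was 352 and 388 CPM with BPTES and 201 and 288 CPM with DMSO. Of the 7, 2 were higher and 3 lower in both BPTES libraries, none was at 0 throughout, and their part in the result was not tested.

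Since Col3a1 was the collagen that passed, the 250 bases before its start are shown, from RefSeq's GRCm38.p6, chr1:45311288-45311537, plus strand. Capitals mark TATAAA, whose first base lies 117 bases before the start; 12.4% of 32851 promoters of this length hold it on either strand:
Col3a1: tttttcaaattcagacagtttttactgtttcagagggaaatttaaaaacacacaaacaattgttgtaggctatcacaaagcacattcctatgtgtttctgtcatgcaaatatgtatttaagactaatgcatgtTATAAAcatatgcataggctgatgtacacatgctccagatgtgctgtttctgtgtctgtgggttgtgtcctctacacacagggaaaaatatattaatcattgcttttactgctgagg

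The chromosomal neighbour of Col3a1 behaved alike without passing. Col5a2, a collagen V chain whose gene ends 24614 bases from that of Col3a1, stood at 514 and 497 CPM with BPTES and 316 and 359 CPM with DMSO. The groups did not overlap, and the log2 fold change was 0.58 ± 0.085 (edgeR adjusted p 0.0636). Col1a2 read 1071 and 1117 CPM against 796 and 836 CPM, again without overlap (0.42 ± 0.075, adjusted p 0.0851). Col1a1 read 666 and 670 CPM against 517 and 556 CPM (0.32 ± 0.075, adjusted p 0.111).

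Among the other roles in the alveolar class, all 8 elastic fibre genes had positive fold changes with a median of 0.17, and 4 did not overlap. Over all genes of this fit 47.9% were positive and 27.3% were higher without overlap. Mfap5, a microfibril-associated protein, had the largest fold change of the 8, at 246 and 264 CPM against 165 and 183 CPM (log2 fold change 0.55 ± 0.082, edgeR adjusted p 0.0636). Fbn1, the main fibrillin, showed overlapping groups (795 and 733 CPM against 734 and 774 CPM) and a fold change of 0.02 ± 0.079. Laminin chains had a median of -0.05, and Lama5 lay lower without overlap (14.3 and 13.02 CPM against 18.7 and 18.5 CPM; -0.45 ± 0.085, adjusted p 0.0905). Col13a1, the transmembrane collagen, was also lower, at 391 and 408 CPM against 486 and 454 CPM (-0.24 ± 0.074, adjusted p 0.149). None of these passed the test.

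**Figure D3:**
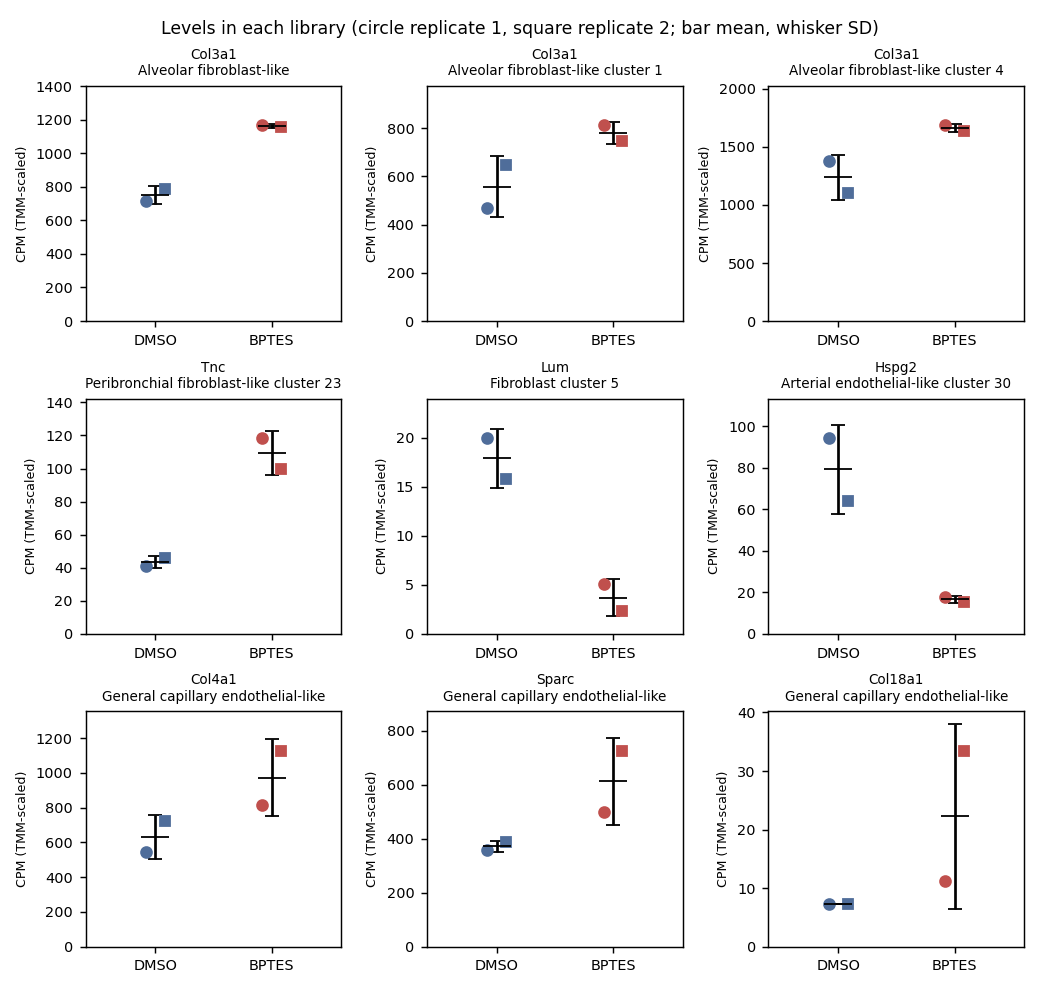
Level (CPM after TMM scaling, y axes from 0) in each library for 6 genes and cell groups in fibroblasts and arterial endothelium and 3 genes in general capillary endothelium, with bars for means and whiskers for SD (n = 2 per group). Col3a1 lies higher with BPTES in the alveolar class and in each of its 2 clusters, and Col18a1 is high in BPTES replicate 2.

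Within each of the 2 alveolar clusters Col3a1 kept its direction and missed the threshold. In cluster 1 it stood at 813 and 746 CPM with BPTES and at 468 and 647 CPM with DMSO. The groups did not overlap, and the log2 fold change was 0.48 ± 0.14 (edgeR adjusted p 0.164). In cluster 4 it stood at 1690 and 1637 CPM against 1377 and 1100 CPM, also without overlap (0.43 ± 0.12, adjusted p 0.192). Of 45 genes tested in cluster 1 and 47 in cluster 4, edgeR called 0 in each, against 0.157% and 0.0669% of all genes. Before adjustment 12 and 16 had a p under 0.05, against 19% and 16.7% of all genes. By DESeq2 4 and 5 passed, where it called 2.09% of all tests over the 8 fibroblast fits.

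Cluster 4 also showed basement membrane collagen and glycoprotein genes at higher levels with BPTES. Col4a1 read 610 and 697 CPM against 433 and 515 CPM (log2 fold change 0.46 ± 0.11, edgeR adjusted p 0.163), and Fn1 read 919 and 1070 CPM against 704 and 716 CPM (0.49 ± 0.10, adjusted p 0.142). Tnc read 337 and 422 CPM against 180 and 280 CPM (0.72 ± 0.20, adjusted p 0.184). Col5a2 came nearest to the threshold, with 682 and 658 CPM against 460 and 463 CPM (0.54 ± 0.083, adjusted p 0.0880). In all 4 genes both BPTES libraries lay above both DMSO libraries. Of the 47 genes, 25 were higher and 8 lower without overlap in cluster 4, against 25.1% and 26.2% of all genes. The test of whether the treatment difference itself differed between clusters 4 and 1 called none of the 47 genes by edgeR, against 0.0305% of all genes. Before adjustment 12 had a p under 0.05, and the share of all genes at that level was not taken. The test was not run with DESeq2.

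Peribronchial fibroblast-like cells carried a called rise. Their marker list was for peribronchial fibroblasts or myofibroblasts and does not part the 2, so their place in the lung is not known. Tnc, the gene of the adhesion-modulating glycoprotein tenascin C (chr4:63959785-64047015, minus strand), stood at 119 and 100 CPM with BPTES and at 40.8 and 46.1 CPM with DMSO. The groups did not overlap, and the log2 fold change was 1.32 ± 0.15 (edgeR adjusted p 0.0373), the only call among 44 genes tested (0.0173% of all genes). Of the 44, 25 had a positive fold change (49.6% of all genes), 8 were higher and 7 lower without overlap (20.3% and 21.4%), and 6 had an unadjusted p under 0.05 (10.4%). The transcript came from a minority of cells: 30.8% and 23.6% held a UMI with BPTES and 16.9% and 17.4% with DMSO, at medians of 14914 to 18054.5 UMIs per cell. In B-like cells, at medians of 11887 to 12703.5 UMIs, the share was 1.27% to 1.92%. The 2 richest cells of each library held 30.8% to 44.4% of its Tnc UMIs, and without them the fold change was 1.18 (adjusted p 0.0794). The call was also lost with a replicate block (0.161), with doublets kept (0.0832) and without barcodes holding markers of another lineage (0.155).

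The 250 bases before the start of Tnc, the gene called in peribronchial cells, read on its own strand (RefSeq GRCm38.p6, chr4:64047016-64047265, minus strand), are as follows, with TATAAA in capitals, 126 bases before the start:
Tnc: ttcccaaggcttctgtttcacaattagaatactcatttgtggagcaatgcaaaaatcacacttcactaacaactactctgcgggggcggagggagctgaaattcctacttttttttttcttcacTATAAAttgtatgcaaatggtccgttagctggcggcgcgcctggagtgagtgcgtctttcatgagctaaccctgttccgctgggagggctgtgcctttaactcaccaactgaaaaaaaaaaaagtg
Both printed windows hold TATAAA and neither holds CCAAT, which 33.8% of promoters of this length contain. A match of letters is a description of the sequence and does not show that a factor binds there.

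In the same peribronchial fibroblast-like cells Lama4, a laminin alpha chain, read 746 and 646 CPM with BPTES and 1174 and 988 CPM with DMSO. The groups did not overlap, and the log2 fold change of -0.63 ± 0.13 did not pass (edgeR adjusted p 0.229). Col13a1 (14.5 and 15.7 CPM against 24.1 and 24.5 CPM) and Col5a2 (310 and 275 CPM against 372 and 335 CPM) also lay lower without overlap, with edgeR adjusted p of 0.339 and 0.475. Col5a2 thus lay on opposite sides in peribronchial and alveolar fibroblast-like cells, a difference that was not tested.

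Lum, the gene of the fibril-regulating proteoglycan lumican (chr10:97565128-97572703, plus strand), fell in fibroblast cluster 5. It stood at 5.05 and 2.35 CPM with BPTES and at 20.01 and 15.8 CPM with DMSO. The groups did not overlap (log2 fold change -2.28 ± 0.38, edgeR adjusted p 0.0324; 0.0776% of all genes were called). It was 1 of 7 of the 42 tested genes with an unadjusted p under 0.05, against 6.72% of all genes. This call rests on few molecules, 14 and 8 UMIs under BPTES against 33 and 43 under DMSO, in 6 to 12 of the cells of each library (0.730% to 2.80% of cells at medians of 2885 to 3659 UMIs, against 0.319% to 1.30% of B-like cells), and it could not be tested without the 2 richest cells. Those 2 cells held 64.3% and 50% of a library's Lum UMIs with BPTES and 69.7% and 88.4% with DMSO. Cells with a UMI made up 0.990% and 0.730% with BPTES and 2.80% and 0.896% with DMSO, so these shares overlapped. With DESeq2 the adjusted p was 0.356, and with a mitochondrial limit of 5% the fold change was -1.81 (edgeR adjusted p 0.361). Dcn and Fbln2 lay lower beside it, Dcn at 598 and 339 CPM against 949 and 852 CPM (-0.94 ± 0.18, adjusted p 0.0937) and Fbln2 at 18.7 and 16.8 CPM against 33.96 and 38.2 CPM (-1.04 ± 0.21, adjusted p 0.116). These 3 genes have their highest means in adventitial or peribronchial fibroblast-like or mesothelial-like cells. The summed level of the 8 adventitial markers overlapped in cluster 5, at 3763 and 3408 CPM against 3489 and 3813 CPM, with 5 of the 8 lower in both BPTES libraries. AT2 markers were higher there, all 7 of them, at 1113 and 628 CPM against 341 and 564 CPM in sum, and the part of either list was not tested.

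Adventitial fibroblast-like cells, the richest source of fibrillar collagen, had no called gene among 47 by edgeR (0.00729% of all genes were called). Before adjustment 6 had a p under 0.05 (10.4% of all genes), and none passed by DESeq2. The fold change was positive in 26 of 47 (49.7% of all genes). Col3a1 read 1753 and 1780 CPM with BPTES and 3382 and 1510 CPM with DMSO. DMSO replicate 1 stood apart and the groups overlapped (log2 fold change -0.47 ± 0.34, edgeR adjusted p 0.665). Without that library the fold change was 0.22. Lox, the crosslinking enzyme, lay lower without overlap (112 and 152 CPM against 182 and 225 CPM; -0.62 ± 0.18, adjusted p 0.375), and Eln lay higher (419 and 533 CPM against 369 and 384 CPM; 0.34 ± 0.14, adjusted p 0.475). The summed level of the 7 mesothelial markers in this cluster was 2.96 and 16.9 CPM with BPTES against 188 and 222 CPM with DMSO. Of the 7, 1 was lower in both BPTES libraries, Lrrn4 was at 0 in all 4 libraries, and the part of this list in these values was not tested.

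The remaining unnamed fibroblast states had 0 called genes by edgeR, where 0% of all genes were called. In cluster 24, a state of low RNA content (median 2743 to 4427 UMIs per cell), 8 of 39 tested genes had an unadjusted p under 0.05 (8.6% of all genes). DESeq2 called 1 there, where it called 2.09% of all tests over the 8 fibroblast fits. Of the 39, 27 were positive (50% of all genes), 12 were higher and 4 lower without overlap (19.1% and 19.9%). That gene was Col5a2, at 738 and 806 CPM with BPTES and 329 and 404 CPM with DMSO, without overlap (log2 fold change 1.08 ± 0.18, edgeR adjusted p 0.114). Col3a1 had the same direction there (447 and 417 CPM against 210 and 252 CPM; 0.90 ± 0.19, adjusted p 0.144). In cluster 26, 11 of 45 had an unadjusted p under 0.05 (11% of all genes), 33 were positive (49.4%) and DESeq2 called none. Fn1 stood at 53.1 and 53.7 CPM against 36.4 and 38.5 CPM (0.51 ± 0.13, adjusted p 0.311) and Lox at 137 and 164 CPM against 101 and 121 CPM (0.43 ± 0.13, adjusted p 0.363), neither with overlap.

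With all fibroblasts pooled edgeR called none of the 47 genes and 0% of all genes. Of the 47, 13 had an unadjusted p under 0.05 (18% of all genes). DESeq2 called 5, all higher with BPTES (Bgn, Col4a2, Col5a2, Mfap5 and Sparc), where it called 3.42% of all genes. The fold change was positive in 33 of 47 (47.1% of all genes), with a median of 0.15 against -0.02 over all genes. Col5a2 read 483 and 465 CPM with BPTES against 357 and 358 CPM with DMSO, without overlap (log2 fold change 0.41 ± 0.074, edgeR adjusted p 0.212). Col3a1 read 1181 and 1194 CPM against 1145 and 876 CPM (0.23 ± 0.14, adjusted p 0.389).

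Each pooled difference was divided exactly into a part from the shift in state shares (by UMIs) and a part from the change within states, in CPM without TMM scaling and as a percent of the DMSO mean. The part within states was the larger for 36 of the 47 genes and the part from shares for 11. Their medians were 3.82% and -0.55%. For Col5a2 the within part was 24.2% and the part from shares 3.65%, and for Col4a2 they were 26.02% and 4.86%. For Eln, of a 12.2% difference, 9.69% came from shares and 2.55% from within states, and for Dcn the parts were -19.6% and -5.29%. These 2 splits depended on the clustering and on single libraries. Splits of other genes also depended on single libraries, as given below. With coarser clustering Eln differed by -3.63 CPM through shares and 103 CPM within states, in place of 78.9 and 20.8 CPM, and Dcn by 153 and -725 CPM, in place of -449 and -122 CPM. Without 1 library the part of Eln from shares ranged from 45.3 CPM (without DMSO replicate 1) to 113 CPM (without DMSO replicate 2), and that within states from 2.75 CPM (without DMSO replicate 2) to 38.9 CPM (without DMSO replicate 1). It was 3.76 CPM without BPTES replicate 2 and 37.9 CPM without BPTES replicate 1. The part of Dcn from shares was -17.8 CPM without DMSO replicate 1, -88.3 CPM without BPTES replicate 1, -811 CPM without BPTES replicate 2 and -881 CPM without DMSO replicate 2, and that within states ranged from -174 to -69.3 CPM. Among the 22 fixed genes, the within part changed sign without 1 library for Col1a1 (-42.2 to 66.9 CPM), Tnc (-61.1 to 79.8 CPM) and Lum (-67.4 to 2.79 CPM). It did so for Col15a1, Lamc1, Fbn1, Postn and Lox as well. The part from shares changed sign for Col3a1 (-30.5 to 52.5 CPM), Col1a1 (-35.8 to 23.9 CPM) and Col1a2 (-66.2 to 44.9 CPM). It also did so for Col4a3, Col6a3, Col13a1, Col14a1, Col15a1, Lama4, Fbn1, Tnc, Postn and Lox. The within parts of Col4a1 (33.6 to 127 CPM) and Col4a2 (34.2 to 81.4 CPM) kept their sign. The sign of the within part was the same in all 4 pairings of a BPTES with a DMSO library for 26 of the 47 genes, and that of the part from shares for 16.

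**Figure D4:**
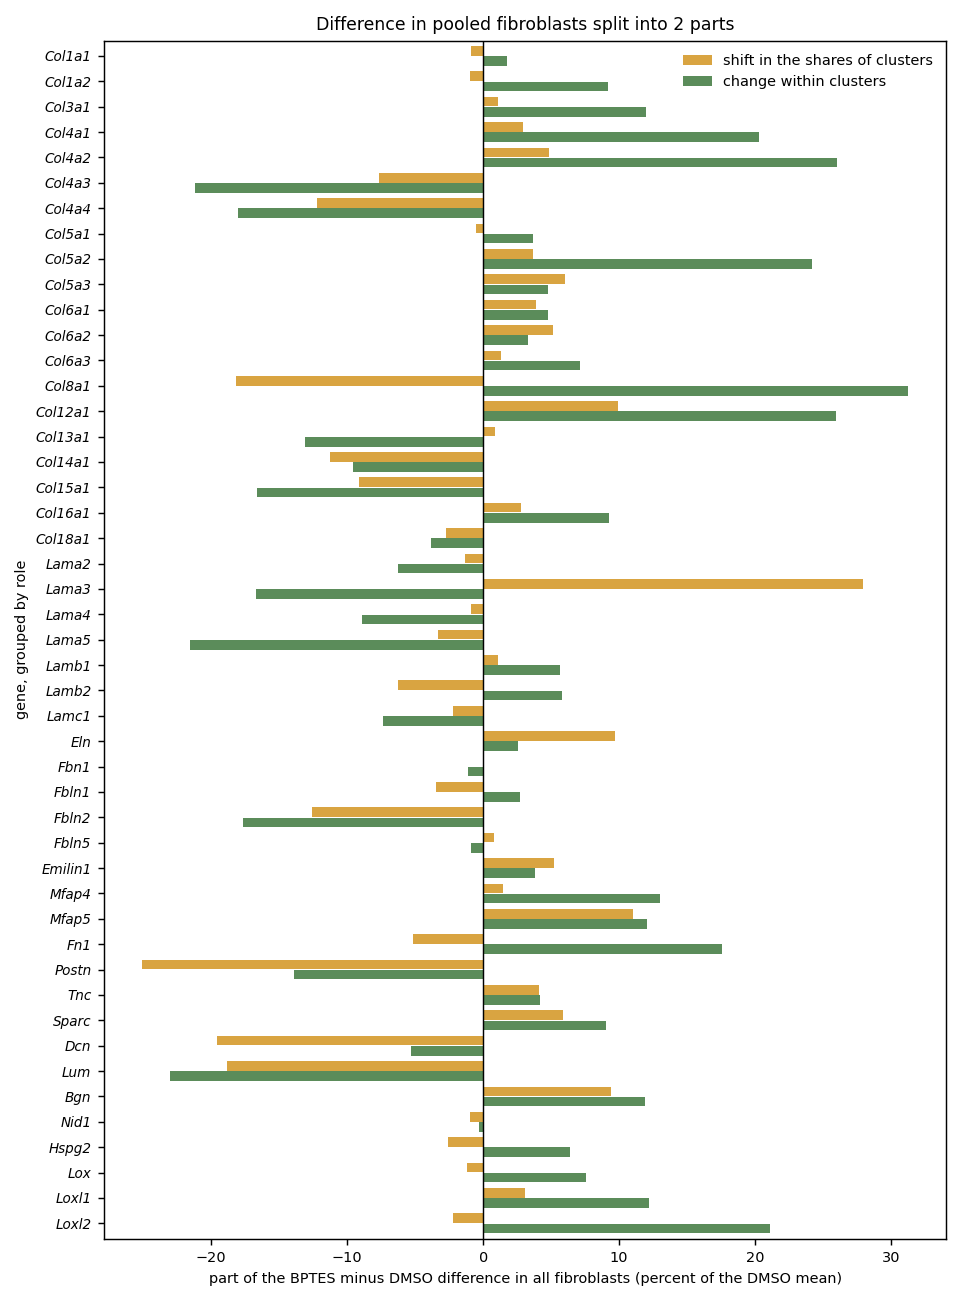
The BPTES minus DMSO difference of each of the 47 genes (rows) in all fibroblasts, split into the part from the shares of the 7 clusters and the part within clusters, as percent of the DMSO mean (x axis). The within part is the longer bar for 36 genes, including Col4a1, Col4a2 and Col5a2, and the part from shares for 11, including Eln and Dcn.

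Inside the alveolar class, where clusters 1 and 4 traded places, the split of Col3a1 was 36.5% within and 14.2% from shares, of a difference of 50.7%. The within part was the larger for 32 genes and the part from shares for 15, with medians of 5.35% and 5.10%. In this class the sign of the within part was the same in all 4 pairings of libraries for 28 genes. That of the part from shares was the same for 45, but the class has only clusters 1 and 4. The same shift in shares enters for every gene, so the 45 are not separate results and cannot be set against the 28. Mfap5 was divided nearly evenly, 20.1% within and 22.96% from shares. Dcn had parts of opposite sign, 39.9% from shares and -18.0% within, so its level within the clusters lay lower while the class as a whole lay higher. These parts carry no test. The shares are of UMIs, so the part from shares holds both the number of cells of a state and their RNA content, which it cannot tell apart. Fibroblast cluster 5, for example, was 18.5% of fibroblast cells but 3.81% of fibroblast UMIs in BPTES replicate 1.

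In endothelium 1 gene passed among 7 fits of named types, against 0.150% of all tests. Hspg2, perlecan, which anchors growth factors in basement membranes (chr4:137468769-137570630, plus strand), fell in arterial endothelial-like cells. DESeq2 called 10 results, where it called 1.93% of all tests. With 1 library left out edgeR called 31 (BPTES replicate 1), 1 (BPTES replicate 2), 1 (DMSO replicate 1) and 12 (DMSO replicate 2), where it called 4.65%, 0.317%, 0.219% and 1.11% of all tests.

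Arterial endothelial-like cluster 30 held 89 to 121 cells per library; 6 of its 7 fixed arterial markers were detected, and none was among its 10 leading genes. Hspg2 stood at 18.0 and 15.6 CPM with BPTES and at 94.5 and 64.005 CPM with DMSO. The groups did not overlap, and the log2 fold change was -2.22 ± 0.26 (edgeR adjusted p 0.0120), 1 of 31 genes tested, against 0.438% of all genes. Between 6.80% and 18.0% of its cells held a UMI, at medians of 13032 to 13812 UMIs, against 2.56% to 3.99% of B-like cells at 11887 to 12703.5 UMIs. Without the 2 richest cells of each library the fold change was -2.86 (adjusted p 0.0103). The call was lost without BPTES replicate 2 (0.183) and at a finer clustering (-0.94, 0.146), where the matched cluster held 307 to 490 cells per library.

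Other matrix genes also lay lower in the arterial endothelial-like cluster. Dcn read 3.72 and 6.37 CPM with BPTES and 199 and 23.2 CPM with DMSO, highest in DMSO replicate 1 (log2 fold change -4.41 ± 0.94, edgeR adjusted p 0.0904). Col3a1 read 3.72 and 7.78 CPM against 35.3 and 18.2 CPM (-2.20 ± 0.47, adjusted p 0.0912), and Col4a4 read 4.96 and 2.12 CPM against 26.3 and 17.6 CPM (-2.55 ± 0.48, adjusted p 0.0536). Summed markers moved the same way, the 8 adventitial ones at 78.7 and 103 CPM against 156 and 129 CPM, and the 6 general fibroblast ones at 75.7 and 93.8 CPM against 144 and 144 CPM. Of these lists, 4 of 8 and 3 of 6 genes were lower in both BPTES libraries, and none was at 0 in all. Their part in the Hspg2 result was not tested.

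Basement membrane collagens were higher with BPTES in capillary endothelium without passing. General capillary endothelial-like cells had Col4a1 at 817 and 1127 CPM with BPTES and 543 and 722 CPM with DMSO. Col4a2 read 568 and 833 CPM against 357 and 487 CPM, and Sparc 499 and 727 CPM against 358 and 386 CPM. In all 3 both BPTES libraries lay above both DMSO libraries. Of the 45 genes tested there, 11 were higher and 12 lower without overlap, against 27.9% and 27.9% of all genes. The log2 fold changes were 0.62 ± 0.18, 0.73 ± 0.21 and 0.72 ± 0.17, with edgeR adjusted p of 0.148, 0.142 and 0.127. Elastin lay lower, at 69.6 and 63.6 CPM against 108 and 83.3 CPM (-0.52 ± 0.12, adjusted p 0.129). Of 45 genes edgeR called 0 and 0% of all genes, and 15 had an unadjusted p under 0.05 (20.8% of all genes). DESeq2 called 3, where it called 1.93% of all tests over the 7 endothelial fits. The median over the 45 was -0.02, with 21 of 45 positive (48.7% of all genes).

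Col18a1, whose C-terminal fragment is endostatin, was high in 1 library across capillary, arterial and aerocyte endothelial-like cells. In general capillary endothelial-like cells it read 11.2 and 33.5 CPM with BPTES and 7.22 and 7.23 CPM with DMSO. BPTES replicate 2 stood apart, and the log2 fold change was 1.62 ± 0.45 (edgeR adjusted p 0.142). In aerocyte endothelial-like cells it read 13.3 and 42.6 CPM against 23.8 and 19.1 CPM with overlapping groups (0.37 ± 0.37, adjusted p 0.797). The test of the difference between the 2 types called it, 1 of the 45 genes tested against 0.228% of all genes: the fold change was lower by 1.22 in aerocytes (-1.22 ± 0.17, adjusted p 0.00374). Without BPTES replicate 2 that p was 0.0697.

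General capillary endothelial-like cluster 10 repeated the direction of Sparc, at 357 and 379 CPM with BPTES against 236 and 217 CPM with DMSO, without overlap (log2 fold change 0.70 ± 0.13, edgeR adjusted p 0.0659). Lama4 lay lower in that cluster (17.6 and 15.7 CPM against 51.0 and 29.5 CPM; -1.21 ± 0.26, adjusted p 0.0886). Aerocyte endothelial-like cells had Col4a2 at 407 and 533 CPM against 367 and 374 CPM (0.34 ± 0.10, adjusted p 0.232). Venous endothelial-like cells had Eln at 290 and 428 CPM against 285 and 243 CPM (0.45 ± 0.17, adjusted p 0.321), opposite in sign to capillaries, and Lama4 at 79.7 and 82.6 CPM against 61.1 and 63.4 CPM (0.38 ± 0.094, adjusted p 0.183). Lymphatic endothelial-like cells, where Lama4 was highest, had Dcn at 16.2 and 21.0 CPM against 38.6 and 31.8 CPM (-0.94 ± 0.19, adjusted p 0.0527). In these 4 groups edgeR called 0 of 32, 32, 39 and 35 genes, and 11, 3, 5 and 7 had a p under 0.05 before adjustment, against 16.6%, 10.3%, 12.4% and 11.8% of all genes. By DESeq2 2, 0, 0 and 0 passed, where it called 1.93% of all tests over the 7 endothelial fits. Over all genes of these fits edgeR called 0.046%, 0.225%, 0% and 0.478%.

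Fn1 in lymphatic endothelial-like cells differed through 1 library. It read 8.87 and 13.03 CPM with BPTES and 120 and 13.001 CPM with DMSO, the high value being that of DMSO replicate 1. The log2 fold change was -2.65 ± 0.67 (edgeR adjusted p 0.126), and without that library it was -0.27.

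Endothelial clusters 2 and 11 were left unnamed, since genes of arterial endothelium led the capillary-like cluster 2 and cells of cluster 11 were shallow, and both were fitted apart from the planned types after the data had been seen. Hspg2 rose in cluster 2 from a low level: 7.03 and 8.94 CPM with BPTES and 2.31 and 2.58 CPM with DMSO, without overlap (log2 fold change 1.69 ± 0.22, edgeR adjusted p 0.0274; 0.203% of all genes were called). UMIs were found in 4.90% and 5.48% of its cells with BPTES and in 2.31% and 2.43% with DMSO, at medians of 12474 to 13916 UMIs. The DMSO shares lay below the 2.56% to 3.99% of B-like cells, so they cannot be told apart from that reference level. At a finer clustering the fold change was -0.52 (adjusted p 0.235), in a match that included the cluster matched to arterial cluster 30. The call was also lost with coarser clustering (1.07, 0.112), another seed (1.43, 0.103), the 47 genes among those clustered (0.81, 0.173) and without barcodes holding markers of another lineage (1.48, 0.263). The coarser match was also that of the general capillary class. The last run dropped barcodes by Ptprc, Cd74, Inmt, Pdgfra, Pdgfrb or Epcam UMIs. With BPTES it kept 142 of 1348 and 148 of 1205 cells, and with DMSO 65 of 997 and 117 of 1482. In the main clustering perlecan RNA thus lay on opposite sides in clusters 2 and 30, and this difference was not tested. At the finer clustering the fold change was negative in both matches, which shared cells. Col4a1 in cluster 2 read 947 and 1217 CPM against 706 and 852 CPM (0.47 ± 0.14, adjusted p 0.133), in the direction of the named capillaries, and Eln read 90.6 and 89.2 CPM against 143 and 112 CPM (-0.50 ± 0.11, adjusted p 0.0920). In cluster 11 edgeR and DESeq2 called none of 29 genes, 5 had an unadjusted p under 0.05 (6.73% of all genes), and edgeR called 0.217% of all genes.

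Mural and epithelial cells had no called gene by edgeR. Among 45 genes tested in pericyte-like cells 39 had a positive fold change (50.5% of all genes), with a median of 0.25 against 0.00 over all genes. Of the 45, 6 had an unadjusted p under 0.05 (6.94% of all genes), edgeR called 0% of all genes, and DESeq2 called Mfap4. Mfap4 read 39.6 and 74.4 CPM with BPTES and 20.2 and 17.46 CPM with DMSO (log2 fold change 1.61 ± 0.33, edgeR adjusted p 0.641). Col3a1 read 722 and 582 CPM against 320 and 500 CPM (0.66 ± 0.24, adjusted p 0.692), and Lox 22.6 and 23.8 CPM against 10.8 and 9.16 CPM (1.23 ± 0.22, adjusted p 0.617). In all 3 the groups did not overlap. Of the 45 genes, 14 were higher and 2 lower without overlap, against 19.4% and 19.5% of all genes. The summed level of the 6 general fibroblast markers was also higher there, at 1870 and 2431 CPM against 1436 and 1753 CPM. The sum of the 7 smooth muscle markers was higher too, at 7091 and 12412 CPM against 5907 and 6775 CPM. Of these, 2 of 6 and 4 of 7 genes were higher in both BPTES libraries, none was at 0 throughout, and their part was not tested. Postn, the leading pericyte gene, overlapped (2692 and 2726 CPM against 2760 and 2892 CPM). In AT2-like cells 5 of 40 genes had an unadjusted p under 0.05 (15.1% of all genes), edgeR called 0.176% of all genes, and DESeq2 called 1 of the 40 (Postn). Over the pericyte-like and AT2-like fits together DESeq2 called 0.652% of all tests. AT1-like, mesothelial-like and cluster 34 cells were too few in at least 1 library to be tested.

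Whether a gene's response differed between fibroblast types was tested for adventitial against alveolar fibroblast-like cells. Of the 47 genes 1 was called, against 0.373% of all genes. Col15a1, a multiplexin, read 160 and 203 CPM with BPTES and 332 and 203 CPM with DMSO in adventitial cells, with overlap, and DMSO replicate 1 stood apart. In alveolar fibroblast-like cells it read 14.4 and 18.6 CPM against 11.003 and 8.24 CPM, without overlap. The log2 fold changes were -0.56 ± 0.25 and 0.78 ± 0.17, and their difference was -1.32 ± 0.14 (edgeR adjusted p 0.0175). It was not called without BPTES replicate 1 (0.0869) or BPTES replicate 2 (0.0507).

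Genes that fold, cleave, anchor or bind the matrix were followed in 6 further lists of 76 genes. In alveolar fibroblast-like cells 17 of 18 genes for collagen folding and secretion had positive fold changes, with a median of 0.20, 12 were higher without overlap and none passed. Over all genes of that fit 47.9% were positive, 27.3% were higher and 28.7% lower without overlap, and 0.299% were called. Of 8 tested genes for other elastic fibre and fibrillin proteins 7 were positive and 1 rose. That was Ltbp2, a fibrillin-binding protein of microfibrils, at 76.1 and 66.0 CPM with BPTES and 24.3 and 33.6 CPM with DMSO (log2 fold change 1.29 ± 0.15, edgeR adjusted p 0.0355). It also rose within cluster 4, at 125 and 108 CPM against 58.7 and 62.3 CPM (0.95 ± 0.097, adjusted p 0.0422). Of 9 other basement membrane genes 1 was positive, 4 were lower without overlap and none was called. Elsewhere Tnxb, of the tenascin family, fell in lymphatic endothelial-like cells (25.1 and 31.7 CPM against 67.4 and 51.2 CPM; -1.08 ± 0.18, adjusted p 0.0211). Ogn, a small leucine-rich proteoglycan, read lower in AT2-like cells (5.88 and 6.92 CPM against 15.5 and 15.1 CPM; -1.25 ± 0.16, adjusted p 0.0348). Among the 40 of the 47 genes tested in AT2-like cells 26 were negative. There, 12 were lower and 5 higher without overlap, against 24.8% and 23.7% of all genes. For Tnxb and Ogn no level in B-like cells was taken, and the part of RNA from other cells was not tested. Lists for procollagen cleavage, other basement membrane genes, folding and matrix receptors had no call in any of the 20 fits.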

How the data were processed

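Single-cell 3' RNA libraries (10x GEM-X v4) from 4 lung samples were counted by the authors with Cell Ranger 8.0.1 on mm10, per the submitters' processing notes. The deposited values are raw UMI counts per gene and barcode, and the files carry no cell annotation. Barcodes needed 500 genes and 1000 UMIs or more, with mitochondrial UMIs of no more than 10%, which left 15349 to 20549 per library, and simulated-doublet scoring at 0.4% per 1000 barcodes then removed 6.14% to 8.22%. Pairs of libraries shared 75 to 121 barcodes, which were kept as separate cells.

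Cells were clustered with the Leiden method of igraph 0.11.9 (40 principal components, 15 neighbours, resolution 1). The input was 2000 variable genes, chosen with scanpy 1.11.5, less the 24 described genes among them. Clusters were named from fixed markers, or left unnamed when shallow, when scores were close or when leading genes marked another type. UMIs were summed per library and group of cells with at least 50 cells in each library and tested with edgeR 4.0.16 (quasi-likelihood, TMM, low-count filter, Benjamini-Hochberg adjustment over all genes). DESeq2 1.42.0 and other settings were alternatives. On data simulated for alveolar fibroblast-like cluster 1 (15899 genes) the test recovered 98 of 100 genes changed 2-fold and 73 of 100 changed 1.5-fold, with 6 false calls. For pooled fibroblasts it recovered 97 and 36 of 100, with 2 false calls. For general capillary endothelial-like cells it recovered 97 and 72, with 6. The simulations gave every gene the same spread between libraries and changed only well-counted genes.

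The 47 genes and the lists were chosen with earlier results of these data known. Genes named per comparison are those called, up to 3 per direction with the largest fold change, non-overlapping libraries and a mean of at least 10 CPM, and 22 fixed genes, described where their values bear on the comparison. Col5a2 and Mfap5 in alveolar fibroblast-like cells, outside this rule, were chosen after their values were seen. Promoter windows came from RefSeq (GRCm38.p6), where 30 of the 47 genes matched. UMI shares carry counting error only as sampled molecules.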

Additional observations from a re-analysis of the deposited data

Results flagged for a closer look

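The treatment difference of Col15a1 was smaller in adventitial than in alveolar fibroblast-like cells by -1.32 ± 0.14 on the log2 scale (edgeR adjusted p 0.0175), in a direct test of the difference between the cell types. The treatment difference of Col18a1 was smaller in aerocyte than in general capillary endothelial-like cells by -1.22 ± 0.17 (edgeR adjusted p 0.00374), in the same kind of test.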

How the results depend on the processing

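Of 1108 alternative values for single genes 913 kept their direction and side of the threshold, 165 passed it newly, 20 no longer passed and 10 changed sign. Most of the 1108 belong to results not called in the main run, which could not lose a call. The 20 all come from the few results that were called, and are given with those results above. They are thus no measure of how stable the calls were. Counts of called genes depended on the method. With 3 calls in fibroblast states, alternatives gave 26 (DESeq2), 38 (no filter on low counts), 8 (replicate block), 5 (finer clustering) and 1 (doublets kept), and 4 to 27 without 1 library. With 0 in pooled fibroblasts, DESeq2 gave 5 and leaving out a library 0. With 1 in endothelial types, alternatives gave 2 (RLE size factors), 10 (DESeq2), 49 (no filter), 35 (replicate block), 2 (coarser clustering), 0 (finer clustering), 5 (another seed), 2 (mitochondrial limit of 5%) and 2 (without barcodes holding markers of another lineage), and 1 to 31 without 1 library. With 0 in mural and epithelial types, DESeq2 gave 2, no filter 15 and leaving out a library 1 to 2. With 2 differences between cell types, no filter gave 32 and leaving out a library 1 to 14. Shares of all tests called moved too. In fibroblast states they were 0.0943% in the main run, 2.09% (DESeq2), 2.2% (no filter) and 0.485% (replicate block). They were 0.102% with finer clustering and 0.0159% with doublets kept. In endothelial types they were 0.15%, 1.93%, 4.2% and 4.98% in that order. Endothelial shares were also 0.166% (RLE), 0.17% (coarser clustering), 0.0734% (finer clustering) and 0.331% (another seed). With a mitochondrial limit of 5% the share was 0.203%, and without barcodes holding markers of another lineage 0.135%. Mural and epithelial types had 0.0915% in the main run, 0.652% (DESeq2) and 2.74% (no filter). The causes were not tested.

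The signs that changed were Col15a1 in the alveolar class (-0.35), Col3a1 in cluster 4 (-0.15), Lox in adventitial cells (0.053) and Lama4 in capillary cluster 10 (0.29), all with coarser clustering. Lama4 in cluster 10 was 0.029 with the 47 genes among those clustered, Col3a1 in adventitial cells ranged from -0.94 to 0.22 without 1 library (0.22 without DMSO replicate 1). The others were Fn1 and Lox in cluster 26, -0.47 and -0.31 with another seed, Col3a1 in arterial cells, 0.79 with doublets kept, and Hspg2 in cluster 2, -0.52 with finer clustering. Under another clustering a group was replaced by its best match, which could hold other cells. Coarser clustering matched clusters 4, 15 and 26 to the same cluster. The overlap, shared cells over cells in either, was 0.37 for cluster 4, 0.32 for adventitial cells and 0.12 for capillary cluster 10. It was 0.31 for cluster 26 with another seed and 0.25 for capillary cluster 10 with the 47 genes. The labels do not say that replicate numbers pair the libraries. As a check, the log2 difference of replicate 1 minus replicate 2 was taken for each gene within BPTES and within DMSO. Over genes, the correlation of these 2 differences lay between -0.10 and 0.33 in 20 groups of cells. The runs without the 2 richest cells per library, and the fits of endothelial clusters 2 and 11, were chosen after seeing the data.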
